A study of Mus musculus with 8 samples.

Results

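The duplicated segment of mouse chromosome 16 in Dp1Tyb fibroblasts holds, beside its better known genes, a varied set of 31 protein-coding genes with housekeeping, signalling and little-studied roles, and it is these 31 genes that are described here. They were chosen by name as genes of the annotated segment (GRCm38, chromosome 16, 75540514 to 97962622). Of the 31, 27 had a row among the 19493 endogenous genes of the count table and 26 had counts high enough to be tested. Clic6, a chloride channel family protein, Ripply3, a transcriptional co-repressor, Pcp4, a calmodulin-binding protein, and Fam3b, a secreted protein, were not analysed here. Ripk4 had a row but too few counts for a test.

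The 8 libraries were 4 WT and 4 Dp1Tyb cultures of mouse embryonic fibroblasts (MEFs), which are connective tissue cells grown out of embryos, here from littermates (E14.5). The labels give the strain background of both genotypes as C57BL/6J.129P2, and per the study's methods the mice had been backcrossed to C57BL/6JNimr. The Dp1Tyb cultures carried Dp(16Lipi-Zbtb21)1TybEmcf, a tandem duplication from Lipi to Zbtb21 on 1 of their chromosomes 16, so that each member is present in 3 copies where WT cells have 2. No treatment was compared, and all cultures were grown in the same medium and passaged. Synthetic RNAs (ERCC spike-ins) had been added to lysates of equal numbers of cells before the poly(A) libraries were made. Total counts ran from 17698900 to 26471758 per library.

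A gene that is copied 3 times and transcribed at the same rate per copy would give 1.5 times the RNA of a gene in 2 copies, a log2 fold change of 0.585. Cells can in principle depart from that ratio through feedback on transcription or through RNA decay, whereas excess subunits of protein complexes are often removed only after translation. Several of the 31 genes encode such subunits. Others encode kinases, exchange factors and transcription factors. Each was therefore set against the 3 to 2 copy ratio as well as against no change.

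The start sites of these genes are shown first, because most members share a CpG-rich promoter that was not used to choose them. RefSeq promoter windows (GRCm38.p6, 250 bases before to 50 after each annotated start) were found for 24 of the 31 genes, with 32 windows in all. The member windows had a median of 28.5 CpG dinucleotides and 66.8% G and C, beside 7 CpG and 52.7% over the 32851 windows searched. Those windows cover 27025 genes and were not limited to protein-coding or expressed genes. Whether the difference is particular to the members was not tested. The 5 windows below were chosen to show the range. They begin with a start shared by a pair of members and the gene with the lowest fold change. Next is the member with the highest fold change among those whose groups did not overlap. Last come the only member windows with the letters of a cyclic AMP response element and with those of a TATA box. Capitals mark matches on either strand to the GC box with the letters GGGCGG, the motif CCAAT bound by NF-Y, the TATA box written as TATAAA, the ETS factor site with letters CCGGAAG or the response element with letters TGACGTCA. No motif contains another of these.
Ttc3, chr16:94370489-94370788, plus strand: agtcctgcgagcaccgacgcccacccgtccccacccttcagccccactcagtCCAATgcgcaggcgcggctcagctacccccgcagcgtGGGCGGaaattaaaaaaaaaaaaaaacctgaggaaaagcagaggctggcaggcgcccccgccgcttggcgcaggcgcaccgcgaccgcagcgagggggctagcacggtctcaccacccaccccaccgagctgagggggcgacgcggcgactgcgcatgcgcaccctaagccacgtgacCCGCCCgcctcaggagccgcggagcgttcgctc
Hunk, chr16:90386147-90386446, plus strand: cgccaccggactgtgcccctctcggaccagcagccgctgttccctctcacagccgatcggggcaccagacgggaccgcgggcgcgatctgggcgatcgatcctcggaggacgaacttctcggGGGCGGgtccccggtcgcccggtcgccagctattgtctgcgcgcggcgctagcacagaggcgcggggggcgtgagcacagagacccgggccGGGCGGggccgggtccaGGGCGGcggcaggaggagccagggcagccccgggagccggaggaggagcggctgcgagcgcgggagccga
Wrb, chr16:96145150-96145449, plus strand: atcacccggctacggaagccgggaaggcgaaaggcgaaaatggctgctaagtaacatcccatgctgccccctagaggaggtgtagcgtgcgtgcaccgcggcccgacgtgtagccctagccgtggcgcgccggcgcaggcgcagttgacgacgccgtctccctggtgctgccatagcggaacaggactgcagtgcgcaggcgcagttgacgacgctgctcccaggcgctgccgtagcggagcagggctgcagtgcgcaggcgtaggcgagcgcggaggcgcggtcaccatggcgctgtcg
Zbtb21, chr16:97962573-97962872, minus strand: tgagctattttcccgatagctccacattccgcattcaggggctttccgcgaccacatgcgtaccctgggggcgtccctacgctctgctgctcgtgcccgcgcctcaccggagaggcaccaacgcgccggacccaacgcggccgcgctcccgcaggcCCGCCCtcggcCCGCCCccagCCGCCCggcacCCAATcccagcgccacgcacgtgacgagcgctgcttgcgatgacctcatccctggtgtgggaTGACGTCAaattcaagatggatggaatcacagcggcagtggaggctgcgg
Kcnj15, chr16:95257308-95257607, plus strand: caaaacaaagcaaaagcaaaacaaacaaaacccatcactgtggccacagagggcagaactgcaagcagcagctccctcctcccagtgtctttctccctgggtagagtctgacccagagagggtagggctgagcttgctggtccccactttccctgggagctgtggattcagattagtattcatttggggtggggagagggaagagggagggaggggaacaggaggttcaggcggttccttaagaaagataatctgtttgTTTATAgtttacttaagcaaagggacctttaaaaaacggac

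Counted by window, the GC box letters occurred in 20 of the 32 member windows, beside 35.7% of all windows. CCAAT was found in 13 of the 32 (37.4% of all windows) and the ETS letters in 6 (8.86%). The TATA box letters were in the window of Kcnj15 alone (13.6%) and those of the response element in that of Zbtb21 alone (1.79%). The Kcnj15 match lies after the annotated start and reads TATAAA on the strand opposite to the gene, so it does not show a TATA box of that gene. Some of the windows are of the same gene or overlap. The Ttc3 window overlaps by 288 bases one of the 4 windows of Pigp, which is transcribed from the opposite strand (chr16:94370501-94370800), so that these genes start back to back in 1 CpG-rich stretch. The Hunk window has 41 CpG and 3 GC boxes, and the Wrb window 37 CpG and none of the 5 motifs. These matches describe letters only.

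Expression is given in 2 ways. In spike-in scaling, counts were divided by a size factor from the 63 spike-ins, so that a value follows RNA per cell. In relative scaling, they were divided by a factor from all endogenous genes (TMM), so that a value follows a gene's place among all RNAs. Endogenous RNA per spike-in ran from 0.713 to 1.19 in the WT and from 0.688 to 1.31 in the Dp1Tyb libraries. The median SD of a tested member's log2 level over the 4 libraries of a genotype was 0.419 in WT and 0.463 in Dp1Tyb cells with spike-in scaling, and 0.264 and 0.192 with relative scaling. The median standard error of a member's log2 fold change was 0.341 with spike-in and 0.167 with relative scaling. Values per library below are CPM, counts scaled to a fixed library total, in relative scaling. Fewer cells of a kind and less RNA per cell cannot be told apart in such bulk samples.

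Nearly all of these genes were higher in Dp1Tyb cells, by amounts around the copy ratio. With spike-in scaling the log2 fold change was above 0 for 26 of 26 tested members, beside 70.2% of all tested genes, and above 0.585 for 21. With relative scaling it was above 0 for 25, beside 51.2% of all tested genes, the exception being the kinase gene Hunk, and above 0.585 for 16. The median log2 fold change of the members was 0.76 (1.699-fold) with spike-in and 0.71 (1.63-fold) with relative scaling, beside 0.70 and 0.60 for the other 57 tested protein-coding genes of the segment and 0.11 and -0.00 for the 406 tested genes elsewhere on chromosome 16. Over all 16470 tested genes the median was 0.11 with spike-in and 0.01 with relative scaling. Set against that shift, the members' median stood 0.65 above it with spike-in and 0.70 above it with relative scaling.

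**Figure D1:**
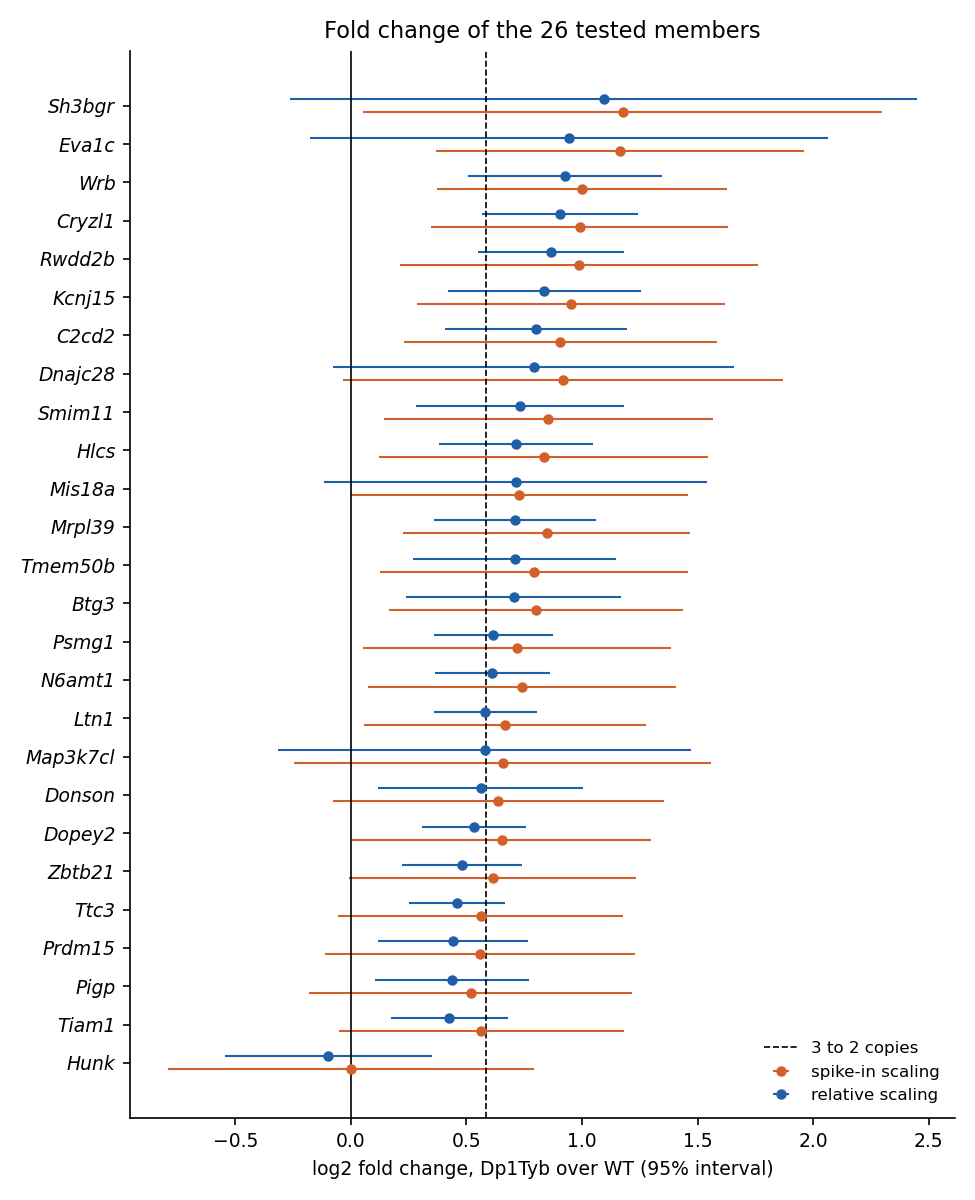
Log2 fold change of Dp1Tyb over WT for the 26 tested members (horizontal axis, points with 95% intervals) in relative scaling (blue) and spike-in scaling (orange), with lines at 0 and at the 3 to 2 copy ratio. Relative intervals are the narrower for most members and 25 of the 26 hold the copy ratio, Hunk being the exception.

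After adjustment over all genes, edgeR's quasi-likelihood test called 0 members in either scaling (0.0121% of all genes were called higher with spike-in and 0.0182% with relative scaling). At an unadjusted p under 0.05 it had 17 members higher with spike-in scaling, where 0.953% of all genes were, and 20 with relative scaling, where 1.77% were. The other protein-coding genes of the segment gave 32 and 38 of 57. The spike-in count fell to 11 without WT replicate 2 and 8 without WT replicate 3, and to 9, 9 and 7 when Dp1Tyb replicates 1, 3 and 4 were left out in turn.

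DESeq2 with relative scaling called 12 members higher after adjustment, beside 0.273% of the 16466 genes it tested and 25 of the other 57 of the segment. They were Mrpl39, Rwdd2b, Ltn1, N6amt1, Cryzl1, Dopey2, Hlcs, Ttc3, Kcnj15, Psmg1, Wrb and C2cd2. With spike-in scaling DESeq2 called 0 members and had 17 at an unadjusted p under 0.05, so that the call depended on both the tool and the scaling. Over all the settings tried the fold changes of these 12 genes kept their direction. Their lowest adjusted p in relative scaling was 6.66e-05 (Rwdd2b by DESeq2). Over the alternatives, which include spike-in scaling, the adjusted p reached 1.

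A plainer description is whether the lowest Dp1Tyb library lay above the highest WT library. In relative scaling this held for 16 members, beside 1.64% of all genes and 31 of the 57 other genes. With spike-in scaling it held for 6 (Tmem50b, Donson, Cryzl1, Psmg1, Wrb and C2cd2), beside 0.285% of all genes. That count was 20 without Dp1Tyb replicate 2, the library with the least endogenous RNA per spike-in, 10 without WT replicate 1 and 10 without WT replicate 4.

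Summed over the 27 genes, the share of all endogenous counts was 0.0779% ± 0.00298 for WT and 0.111% ± 0.00218 for Dp1Tyb cultures (SD, n = 4), a ratio of 1.43. The WT libraries ran from 0.0745% to 0.0816% and the Dp1Tyb libraries from 0.108% to 0.113%, without overlap. Ttc3 alone gave 31.2% of the members' counts. Without it the difference between genotypes was 0.0255 percentage points, against 0.0335 with it.

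No tested member departed from the copy ratio after adjustment over the 112 tested genes of the segment by edgeR in either scaling. At an unadjusted p under 0.05, 1 member (Hunk) did so with relative scaling and 0 with spike-in scaling, beside 9 and 1 genes of the segment, and DESeq2 also had 0 after adjustment. With relative scaling the 95% interval held 1.5 and left out 1 for 20 members, held both for 5 (Dnajc28, Mis18a, Eva1c, Sh3bgr and Map3k7cl) and held 1 but not 1.5 for Hunk. With spike-in scaling 17 held 1.5 alone and 9 held both. The intervals share variance between genes and do not measure a gene's own spread alone, which matters most for Eva1c and Sh3bgr with spike-in scaling.

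**Figure D2:**
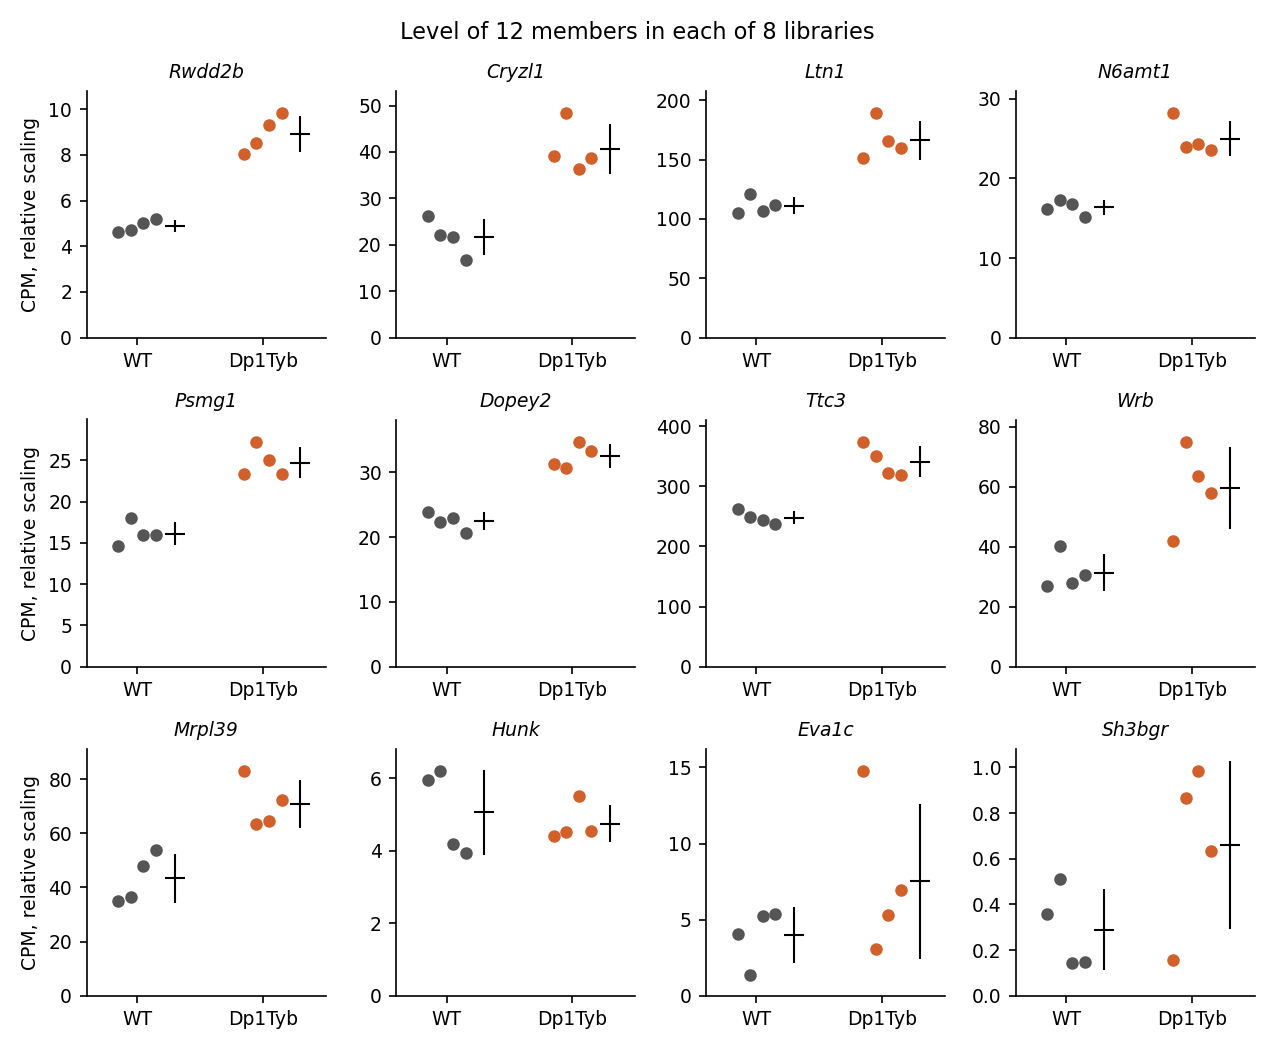
Level of 12 members in each library (points, CPM in relative scaling, linear axes from 0) by genotype, with the mean and SD of the 4 libraries beside each group. In the first 9 panels all Dp1Tyb points lie above all WT points, whereas those of Hunk, Eva1c and Sh3bgr overlap.

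Of the 6 tested members that serve protein synthesis and its quality control, 5 passed the DESeq2 test with relative scaling (0.273% of all genes) and 5 had groups without overlap (1.64%). Their median log2 fold change was 0.61 with relative and 0.73 with spike-in scaling. Ltn1 encodes listerin, the ubiquitin ligase that marks unfinished chains on stalled ribosomes. Its level was 105, 121, 107 and 112 CPM in WT cultures 1 to 4, and the Dp1Tyb cultures, in the same order, had 151, 189, 165 and 159. Every Dp1Tyb library lay above the WT libraries, with a fold change of 1.496 (95% interval 1.28 to 1.75). The adjusted p was 0.195 by edgeR and 0.000522 by DESeq2.

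N6amt1, the methyltransferase that modifies the translation release factor, had 16.2, 17.4, 16.8 and 15.1 CPM in the WT and 28.2, 24, 24.3 and 23.5 in the Dp1Tyb cultures. Dp1Tyb replicate 1 was the highest library, and the other Dp1Tyb libraries lay close together above the WT values. The fold change was 1.53 (95% interval 1.29 to 1.81), and the adjusted p was 0.226 by edgeR and 0.000522 by DESeq2.

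Psmg1 is a chaperone for assembly of the proteasome core. Its WT libraries had 14.6, 17.99, 16.01 and 15.9 CPM and its Dp1Tyb libraries 23.3, 27.2, 25.1 and 23.3. They did not overlap in either scaling, and the fold change was 1.53 (95% interval 1.28 to 1.83), with an adjusted p of 0.226 by edgeR and 0.00135 by DESeq2.

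Mrpl39, a protein of the large subunit of the mitochondrial ribosome, had the highest level per length of all members, with means of 17.1 and 27.95 CPM per kilobase of exon in WT and Dp1Tyb cells. Its libraries gave 35.1, 36.4, 48.03 and 53.7 CPM in WT and 83.02, 63.6, 64.4 and 72.3 in Dp1Tyb cultures, with a like spread in both groups and no overlap. The fold change was 1.64 (95% interval 1.28 to 2.09), with an adjusted p of 0.455 by edgeR and 0.0390 by DESeq2.

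Ttc3, a ubiquitin ligase with tetratricopeptide repeats that acts on phosphorylated Akt, had the most counts, 263, 249, 244 and 238 CPM in WT and 374, 351, 322 and 319 in Dp1Tyb cells. Its spread within a genotype was small and its fold change of 1.38 (95% interval 1.19 to 1.59) lay on the low side of the copy ratio. The test against 1.5 gave an adjusted p of 0.617 by edgeR, and that against no change 0.316 (DESeq2 adjusted p = 0.00128). The J-domain protein Dnajc28 was low, with 0.890 ± 0.494 and 1.51 ± 0.439 CPM (mean ± SD, n = 4) in overlapping groups.

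Among the 7 members of membranes, lipid anchors and trafficking, 6 were higher at an unadjusted p under 0.05 with relative scaling (1.77% of all genes) and 3 passed the DESeq2 test (0.273%). Wrb, the receptor subunit that inserts tail-anchored proteins into the endoplasmic reticulum, had 26.8, 40.2, 27.9 and 30.6 CPM in WT and 42.1, 75, 63.8 and 58 in Dp1Tyb cultures. Dp1Tyb replicate 1 was the lowest of its group and just above the highest WT library, and the rest were well above. The fold change was 1.902 (95% interval 1.42 to 2.55) in relative and 1.999 (95% interval 1.29 to 3.09) in spike-in scaling, with adjusted p = 0.320 by edgeR and 0.00685 by DESeq2. The test against the copy ratio gave an adjusted p of 0.519.

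Dopey2, also called Dop1b, works with MON2 in traffic between endosomes and the Golgi apparatus. It was among the most even members, at 23.9, 22.3, 23.02 and 20.7 CPM in WT and 31.4, 30.6, 34.7 and 33.4 in Dp1Tyb libraries, with no overlap. Its fold change was 1.45 (95% interval 1.24 to 1.69), with an adjusted p of 0.227 by edgeR and 0.000522 by DESeq2.

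Pigp, a subunit of the enzyme that begins glycosylphosphatidylinositol (GPI) anchors, had 11.6 ± 1.55 CPM in WT and 15.8 ± 2.11 in Dp1Tyb cells, a fold change of 1.36 (95% interval 1.08 to 1.71). Pigp and Ttc3 share 326 bases of exon on opposite strands, 16.4% of the Pigp and 2.01% of the Ttc3 exon bases. Their fold changes of 1.36 and 1.38 were near those of Tiam1 (1.34) and Prdm15 (1.36). The counting option for strand is not given in the sources used here, so how reads from the shared bases were counted is not known. The part of the shared bases in the fold changes was not tested.

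C2cd2, a C2-domain protein, went from 13.6 ± 2.79 to 23.7 ± 3.82 CPM and was without overlap in both scalings (fold change 1.74, 95% interval 1.33 to 2.29, DESeq2 adjusted p = 0.0174). Tmem50b, a membrane protein of the endoplasmic reticulum, had 16.04 ± 2.56 and 26.3 ± 6.46 CPM. The small membrane protein gene Smim11 had 9.18 ± 1.92 and 15.2 ± 3.27 CPM. Their fold changes were 1.64 (95% interval 1.21 to 2.22) and 1.66 (95% interval 1.22 to 2.27).

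Eva1c encodes a membrane protein that binds heparin and Slit. Its WT libraries had 4.07, 1.36, 5.21 and 5.34 CPM and its Dp1Tyb libraries 14.8, 3.06, 5.32 and 6.96. Dp1Tyb replicate 1 was far above the rest, and the other libraries of the 2 genotypes overlapped. The fold change of 1.93 (95% interval 0.886 to 4.18) in relative scaling held both 1 and 1.5 (edgeR adjusted p = 0.999), and its log2 value of 0.95 was 0.37 without Dp1Tyb replicate 1. With spike-in scaling the fold change was 2.24 (95% interval 1.29 to 3.89), which held 1.5 and left out 1, although the adjusted p by edgeR was 1. The log2 value there was 1.16, and 0.43 without that library. Its standard error was 0.405 with spike-in and 0.502 with relative scaling. The SD of its log2 level was nonetheless larger with spike-in (1.05 in WT, 1.29 in Dp1Tyb) than with relative scaling (0.93 and 0.943). The fit shares variance between genes, so the spike-in interval does not measure the spread of Eva1c alone.

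Genome copying and centromere genes overlapped between the genotypes in relative scaling. Donson, which helps to assemble the replicative helicase at origins and guards replication forks, had 9.43, 12.1, 8.01 and 7.28 CPM in WT and 10.8, 16.8, 14.4 and 12.6 in Dp1Tyb cultures. WT replicate 2 overlapped the Dp1Tyb range, and the fold change was 1.48 (95% interval 1.09 to 2.01). Mis18a, which licenses centromeres for new CENP-A, had 7.28, 11.6, 6.3 and 6.55 and 5.34, 20.4, 15.95 and 10.8 CPM. Dp1Tyb replicate 1 was the lowest of all 8 libraries and Dp1Tyb replicate 2 the highest. The Mis18a fold change was 1.64 (95% interval 0.924 to 2.91) with relative and 1.66 (95% interval 1.001 to 2.75) with spike-in scaling, and the relative log2 value of 0.71 was 0.42 without Dp1Tyb replicate 2.

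The summed level of 11 helicase genes that lie outside the segment (the MCM, GINS and Cdc45 genes) was 356.3, 703.1, 461.1 and 460.8 CPM in the WT and 275.9, 701.6, 578.1 and 475 CPM in the Dp1Tyb cultures. It was lowest in Dp1Tyb replicate 1 and highest in the libraries numbered 2 of each genotype, as was Mis18a for its lowest library and for the highest library of each genotype. The part of this in the Mis18a and Donson values was not tested.

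Of the 5 tested signalling members, 2 were higher at an unadjusted p under 0.05 with relative scaling (1.77% of all genes) and 0 passed the DESeq2 test (0.273%). Whether they differ from the other members was not tested. Tiam1, an exchange factor that activates the GTPase Rac, had 57.2 ± 5.26 CPM in WT and 76.8 ± 8.58 in Dp1Tyb cells, with no overlap and a fold change of 1.34 (95% interval 1.13 to 1.6). Btg3, an antiproliferative protein of the BTG/TOB family, had 26.8 ± 6.81 and 43.8 ± 8.58 CPM and a fold change of 1.63 (95% interval 1.18 to 2.25). Its exons share 695 bases with Cxadr on the opposite strand.

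Hunk, a kinase of the AMPK-related family, was the exception among the members. Its libraries had 5.94, 6.19, 4.17 and 3.93 CPM in WT and 4.41, 4.5, 5.51 and 4.55 in Dp1Tyb cells. The WT values straddled the Dp1Tyb values, and no Dp1Tyb library exceeded the highest WT library. The fold change was 0.935 (95% interval 0.685 to 1.28) with relative and 1.0 (95% interval 0.577 to 1.73) with spike-in scaling. Against the copy ratio the adjusted p was 0.275 in relative scaling over the 112 genes, so the departure did not pass the test, and the spike-in interval held 1.5. The sign of its change turned in 9 of the settings tried, as its values lie near 0.

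Sh3bgr, a small protein best known from heart and skeletal muscle, was low, at 0.358, 0.509, 0.142 and 0.146 CPM in WT and 0.155, 0.865, 0.984 and 0.633 in Dp1Tyb cells. Dp1Tyb replicate 1 fell among the WT values and the rest lay above them. Its fold change of 2.13 (95% interval 0.833 to 5.46) in relative scaling was the highest of the members and the least precise (edgeR adjusted p = 0.999). With spike-in scaling it was 2.26 (95% interval 1.04 to 4.91), which left out 1, although the adjusted p by edgeR was 1. That interval also rests on variance shared between genes (standard error 0.572). The SD of the Sh3bgr log2 level there was 0.998 in WT and 1.07 in Dp1Tyb libraries. Map3k7cl, which resembles the end of the kinase TAK1, had 1.28 ± 0.707 and 1.95 ± 0.817 CPM. Its log2 fold change of 0.58 ran from 0.29 to 1.06 on leaving out 1 library at a time, the highest being without WT replicate 2.

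Ripk4, a kinase needed for skin differentiation, had raw counts of 0, 1, 6 and 9 in the WT libraries and 11, 2, 5 and 5 in the Dp1Tyb libraries, and no fold change is given. Its WT and Dp1Tyb counts overlapped.

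The tested zinc-finger transcription factor genes passed no adjusted test. In relative scaling Zbtb21, the distal end of the duplication, had 42.7 ± 4.495 CPM in WT and 59.6 ± 6.41 in Dp1Tyb cells with no overlap, a fold change of 1.395 (95% interval 1.17 to 1.67). Prdm15, a regulator of stem cell and embryonic genes, had 16.5 ± 2.25 and 22.3 ± 3.28 CPM and a fold change of 1.36 (95% interval 1.08 to 1.703). The DESeq2 adjusted p was 0.108 and 0.616. With spike-in scaling the fold changes were 1.53 (95% interval 0.995 to 2.35) and 1.47 (95% interval 0.926 to 2.34), and both intervals held 1.

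The 3 tested genes of metabolism and channels passed the DESeq2 test (0.273% of all genes) and showed no overlap (1.64%), both in relative scaling. Cryzl1 encodes a quinone-oxidoreductase-like protein. It had 26.2, 22.02, 21.7 and 16.8 CPM in WT and 39.1, 48.4, 36.3 and 38.6 in Dp1Tyb libraries, which stayed apart in both scalings. The fold change was 1.87 (95% interval 1.48 to 2.37), with adjusted p = 0.169 by edgeR and 0.000112 by DESeq2. Its exons share 444 bases with an antisense gene, Gm10785.

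Kcnj15, the inward-rectifier potassium channel Kir4.2, went from 14.99 ± 3.99 to 26.8 ± 3.71 CPM (fold change 1.79, 95% interval 1.34 to 2.39, DESeq2 adjusted p = 0.0155). Hlcs, which attaches biotin to the carboxylases, went from 9.097 ± 1.44 to 14.9 ± 1.33 CPM (fold change 1.64, 95% interval 1.302 to 2.07, DESeq2 adjusted p = 0.00468).

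Rwdd2b, an RWD-domain protein of little-known function that lies next to Ltn1 (Rwdd2b, chr16:87433407-87440573, minus strand), had the smallest p of the members in both tools with relative scaling. Its libraries gave 4.65, 4.71, 5.02 and 5.19 CPM in WT and 8.04, 8.54, 9.302 and 9.84 in Dp1Tyb cells, a clear gap. The fold change was 1.82 (95% interval 1.47 to 2.27) with relative and 1.98 (95% interval 1.16 to 3.39) with spike-in scaling. The adjusted p was 0.163 by edgeR and 6.66e-05 by DESeq2. Against the copy ratio it was 0.519.

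**Figure D3:**
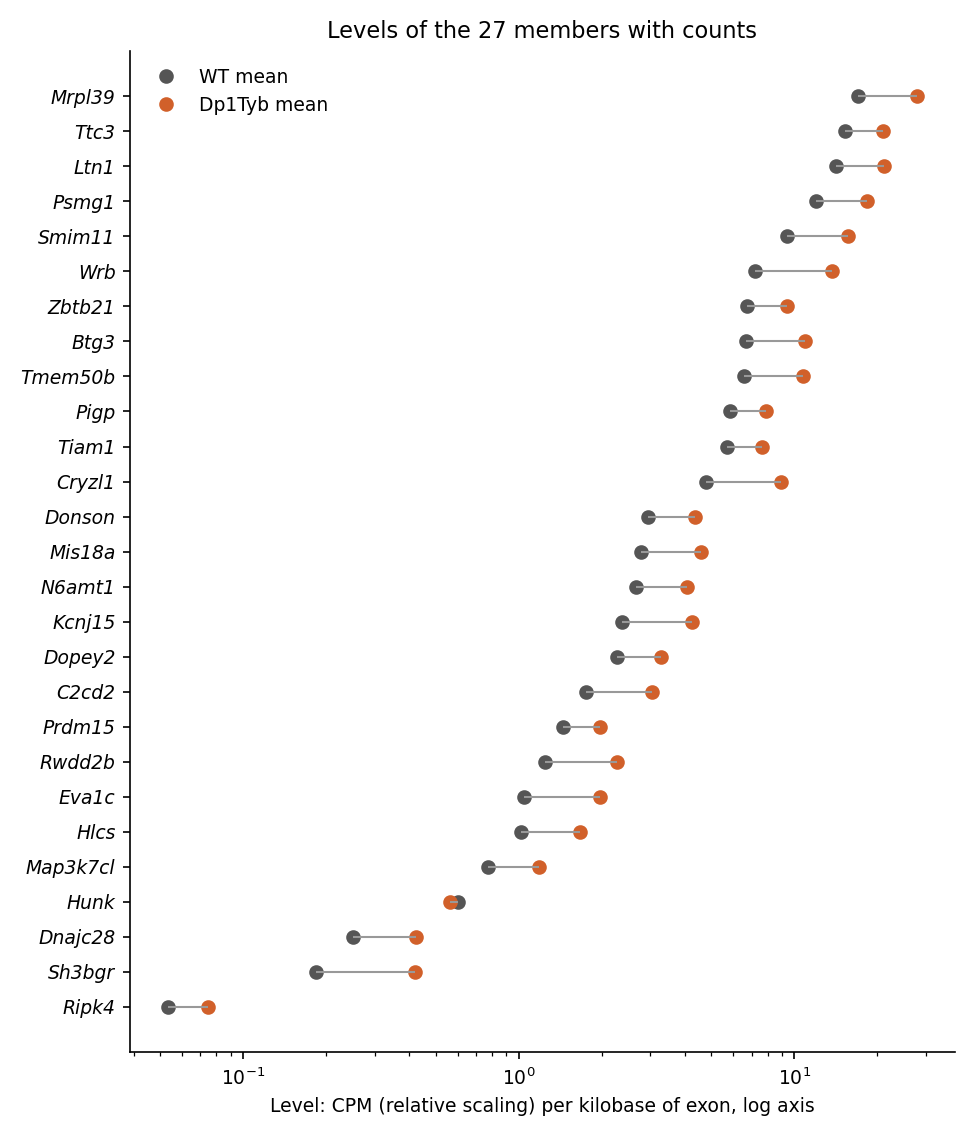
Mean level in WT (grey) and Dp1Tyb cells (orange) of the 27 members with counts, as CPM in relative scaling per kilobase of exon on a log axis, ordered by the WT level. Of the 26 tested members 22 were at 1 or more in WT cells, and the Dp1Tyb point lies to the right of the WT point for all but Hunk.

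Levels per length in WT cells ran from 0.184 CPM per kilobase for Sh3bgr to 17.1 for Mrpl39, a 93.0-fold range among the tested members. After Mrpl39 came Ttc3 (15.3), Ltn1 (14.2) and Psmg1 (11.99), the only others at 10 or more. Hunk (0.602), Map3k7cl (0.777), Dnajc28 (0.250) and Sh3bgr were under 1. The 5 members whose relative interval held both 1 and 1.5 were Eva1c and Mis18a, whose libraries scattered widely, and the last 3 of these low genes.

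**Figure D4:**
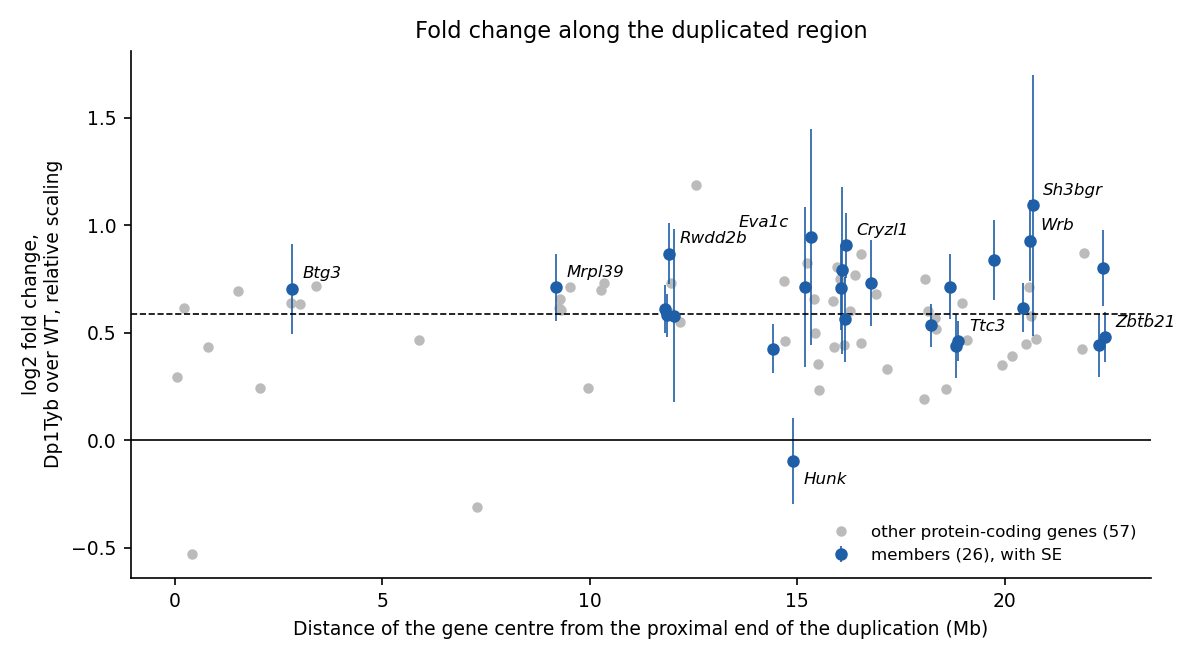
Log2 fold change in relative scaling against the distance of the gene's centre from the proximal end of the duplication, for the 26 members (blue, with SE) and the other 57 tested protein-coding genes of the segment (grey). The members lie around the dashed copy-ratio line along its length, with Hunk below 0.

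By position, the 13 proximal members, Btg3 to Donson, had a median log2 fold change of 0.70 with relative and 0.74 with spike-in scaling, and the 13 distal members, Cryzl1 to Zbtb21, medians of 0.71 and 0.83. The difference between these groups was not tested. Hunk lies in the proximal part, between the members Tiam1 (0.43) and Mis18a (0.71).

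Several members work in complexes or steps whose other genes lie outside the duplication. For these, 12 lists of genes of the same complex, step or family, 114 genes in all, were examined. None was called by edgeR after adjustment in either scaling, and at an unadjusted p under 0.05 there were 3 higher and 0 lower with relative scaling, beside 1.77% of all genes higher, and 0 with spike-in scaling, beside 0.953%. DESeq2 with relative scaling called 0. The list medians ran from -0.11 to 0.28 with relative scaling, beside 0.01 over all genes, whereas the 12 duplicated members themselves ran from 0.43 to 0.93.

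The 46 other genes of the mitochondrial large ribosomal subunit had a median log2 fold change of 0.19 with relative and 0.28 with spike-in scaling, with 43 above 0 and 3 below in relative scaling, where 51.2% of all tested genes were above 0 (70.2% with spike-in scaling). Of these 2 had an unadjusted p under 0.05, the smallest p being that of Mrpl58 (log2 fold change 0.30 ± 0.13, edgeR adjusted p = 0.999). All 5 tested partners of Pigp in the first step of GPI anchors were above 0, with a median of 0.28, and Dpm2 had the smallest p (0.28 ± 0.11, adjusted p = 0.999). These values are below that of Mrpl39 (0.71) and that of Pigp (0.44), and the differences were not tested.

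For the lists of the other members the medians were as follows, and no difference between lists was tested. The 11 helicase genes had a median of 0.04, with Gins2 the smallest p (0.24 ± 0.26). The 5 centromere genes that work with Mis18a had a median of -0.06 (Cenpc1, -0.06 ± 0.11). The other listed chaperones of proteasome assembly, not all of which act with Psmg1, had a median of 0.13 (Psmd10, 0.26 ± 0.13). The ribosome quality control genes that work with Ltn1 had 0.03 (Ankzf1, 0.26 ± 0.14). The tail-anchor insertion genes had 0.10 (Sgta, 0.20 ± 0.14) and the partners in release factor methylation 0.02 (Trmt112, 0.16 ± 0.12). The biotin enzymes that Hlcs serves had 0.04 (Pcx, -0.25 ± 0.23), the relatives of Btg3 and their deadenylases -0.11 (Cnot6l, -0.16 ± 0.09), the Rac genes 0.03 (Prkci, 0.15 ± 0.09) and the 2 partners of Dopey2 0.03 (Atp9a, 0.13 ± 0.11), all as log2 fold change ± SE in relative scaling.

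**Figure D5:**
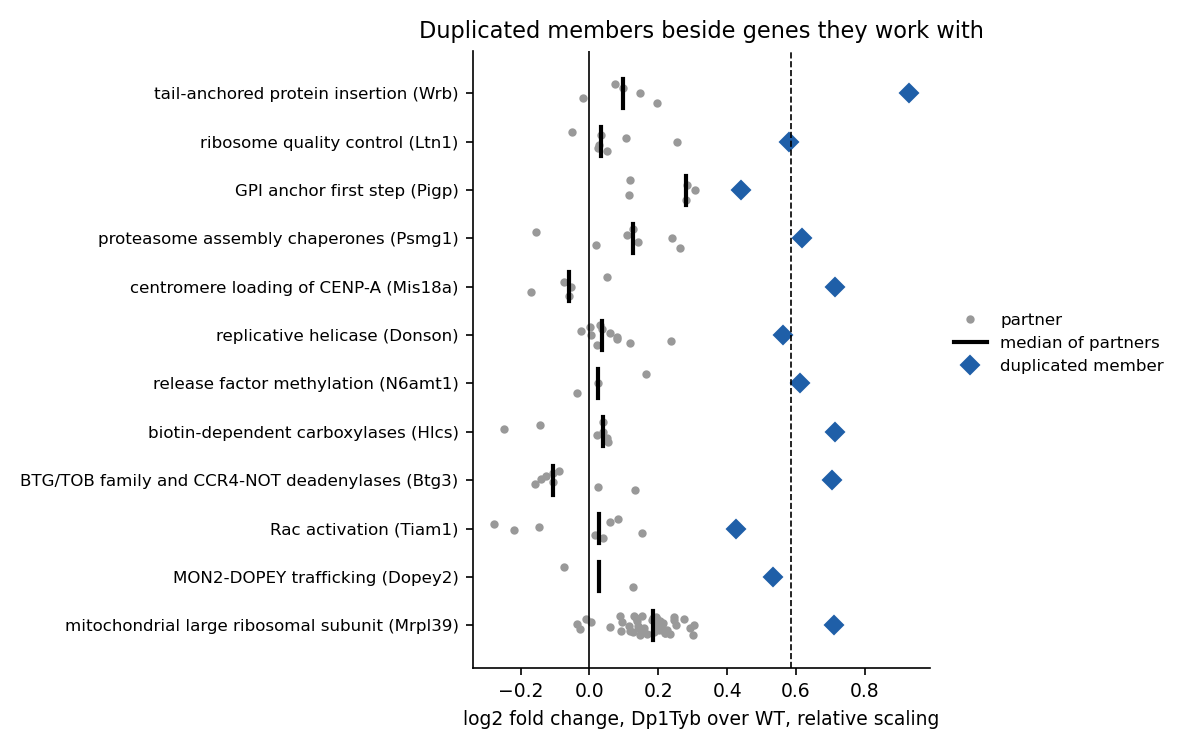
Log2 fold change in relative scaling of 12 duplicated members (blue diamonds) and of genes of the same complex, step or family outside the duplication (grey points, with their median as a black bar). In each of the 12 rows the member lies to the right of all genes of its list, which run from -0.28 to 0.31.

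The cultures matched their label. The summed level of 8 fibroblast markers was 18480 to 28340 CPM in WT and 21450 to 27990 CPM in Dp1Tyb libraries. Marker sums for other cell types were low and overlapped for epithelium (7.19 to 20.5 in WT, 5.34 to 15 in Dp1Tyb), nerve cells (35.8 to 48.7 and 22.2 to 52.4), skeletal muscle (26.01 to 52.8 and 22.8 to 90.3) and endothelium (33.0 to 56.1 and 31.6 to 78.7). Under 1 CPM were 3 of the 6 epithelial genes with a row (Epcam, Cdh1 and Cldn4), 1 of 5 of the neural list (Snap25), 2 of 3 of the muscle list (Myog and Actn2) and 1 of 4 of the endothelial list (Pecam1), and the others of these lists were at or above it. The summed level of the 4 leukocyte markers was lower in Dp1Tyb cultures, at 46.6 to 72.5 against 84.0 to 102 CPM, without overlap. The direction of each marker is not given here, and their part in the members' values was not tested.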

How the data were processed

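Poly(A) RNA of 4 WT and 4 Dp1Tyb MEF cultures with ERCC spike-ins was analysed, grouped by the sample labels. Per the labels and the study's methods, the authors trimmed reads with Trim Galore, aligned them to GRCm38 and the spike-ins with TopHat2 2.0.12 and counted them per gene with HTSeq. The annotation release and the strand option are not given in the sources used here. The deposited raw counts, not normalised, were used as they stand. No row sum is below 15. The normalised signal that the authors deposited, and their DESeq2 1.6.3 table of log2 fold changes, p-values and scores, were not used.

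Members were matched by Ensembl gene ID to GENCODE M21 (GRCm38). The members and lists were chosen with earlier results of these data known. Counts were tested with edgeR 4.0.16 in R 4.3.3 (filterByExpr, glmQLFit, glmQLFTest, 2-sided, Benjamini-Hochberg over 16470 genes, threshold 0.05), WT and Dp1Tyb alone in the fit. Size factors were medians of ratios over the 63 spike-ins, and TMM for relative scaling. The copy ratio was tested with an offset of log 1.5, adjusted over the 112 tested genes of the segment. The 95% intervals use the fit's standard error, in which variance is shared between genes. DESeq2 1.42.0 was an alternative, as were other filters, size factors, the replicate block and leaving out each library. The fits were tested on simulated data. CPM per kilobase uses the summed exon length. Total counts were 17698900 to 26471758 per library, and counting error weighs most on members with few counts. Cultures came from separate embryos, and libraries of a genotype differed by more than counting noise. Every member with a row was named, and per-library values are printed for up to 8 with the smallest p, 4 farthest from the copy ratio and 4 with the highest level per length in relative scaling. Those of Donson and Mis18a are outside this rule and were added after their values were seen, and those of Ripk4 are raw counts. The RefSeq windows were searched on both strands.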

Additional observations from a re-analysis of the deposited data

Results flagged for a closer look

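In 3 of the 54 groups of 4 libraries examined (27 members, each genotype), a library stood apart from the other 3 by Dixon's test, and chance alone flags about 1 group in 20. N6amt1 reached 28.23 CPM in Dp1Tyb replicate 1, above the other Dp1Tyb libraries. Map3k7cl reached 2.333 CPM in WT replicate 2, above the other WT libraries. Hunk reached 5.512 CPM in Dp1Tyb replicate 3, above the other Dp1Tyb libraries, although below the highest WT library.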

How the results depend on the processing

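The members' medians kept their sign in all settings tried. Leaving out 1 library at a time moved the median log2 fold change between 0.63 and 0.91 with spike-in and between 0.62 and 0.71 with relative scaling, and without members whose exons overlap another gene, an alternative added after seeing the data, it was 0.76 and 0.71. The calls did not hold across tools: DESeq2 called 12 members in relative scaling and edgeR 0, with 0 to 0 on leaving out a library. Groups without overlap numbered 6 with spike-in and 16 with relative scaling, from 6 to 20 and from 16 to 20 on leaving out a library. Members higher at an unadjusted p under 0.05 ran from 7 to 22 with spike-in and from 19 to 23 with relative scaling. The members' share of counts differed by 0.0255 percentage points without Ttc3, and by 0.0324 to 0.0347 on leaving out a library. The cause of these shifts was not tested.

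Of 754 alternative values of single members, 733 kept direction and call, 12 were called by DESeq2 alone and 9 turned sign, all for Hunk. For Hunk the log2 value from spike-in factors was 0.000618, and -0.10 with relative scaling, -0.00296 with the replicate block, -0.21 without WT replicate 3, -0.02 without WT replicate 4, and -0.04, -0.08 and -0.07 without Dp1Tyb replicates 1, 3 and 4, all from -0.2069 to 0.2035 over the 8 libraries left out. With relative scaling it was -0.10, and from -0.1967 to 0.02642 (without WT replicate 2) over the 8 libraries left out.

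The deviations of same-numbered libraries correlated at 0.375, 0.605, -0.0299 and 0.393. The labels do not say what a number stands for and the third pair was near 0, so the samples were not treated as paired, although 3 of the 4 pairs correlated. With the replicate block, 24 members were higher at an unadjusted p under 0.05 in each scaling, where the share of all genes also went up, from 0.953% to 1.99% with spike-in and from 1.77% to 4.29% with relative scaling, 0 were called, and the medians were 0.75 and 0.66. Each library correlated best with its own number except those numbered 3. Counts were lowest for Ripk4, Sh3bgr, Dnajc28 and Map3k7cl.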
